A study of Mus musculus with 6 samples.

Results

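The clustered protocadherin genes are 3 neighbouring families of cell adhesion genes on mouse chromosome 18. They were taken as the protein-coding genes of the GENCODE vM21 annotation on that chromosome whose symbols start with Pcdha, Pcdhb or Pcdhg. The rule found 57 of the 21755 protein-coding genes of chromosomes 1 to 19 and X: 14 in the alpha cluster, 22 in the beta cluster and 21 in the gamma cluster, all on the plus strand. No measured value entered the choice. In the GRCm38 (mm10) build the alpha cluster runs from 36930184 to 37187661, the beta cluster from 37264938 to 37524479 and the gamma cluster from 37661793 to 37841873, so that the whole locus spans 911.7 kb. The annotation gives the symbol Pcdha11 to 2 genes, ENSMUSG00000007440 and ENSMUSG00000102206, which were kept as separate members. It also holds 3 read-through models, Gm42416, Gm37013 and Gm37388, that run over the clusters and share their reads.

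Clustered protocadherins are homophilic adhesion molecules, and the combination a neuron displays lets its branches recognise and avoid each other. Each alpha and gamma gene consists of a variable first exon with its own promoter, spliced to constant exons that the whole cluster shares, whereas each beta gene is a lone exon. In neurons most of these promoters are chosen at random, with DNA methylation keeping the others silent and with CTCF and cohesin looping the chosen promoter to distant enhancers. The C-type members at the ends of the alpha and gamma clusters (Pcdhac1, Pcdhac2, Pcdhgc3, Pcdhgc4 and Pcdhgc5) are the exception, being expressed in most neurons or in particular types without that random choice.

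Ends of DNA breaks were located by BLISS, in which break ends are fitted with adaptors in fixed nuclei and then sequenced. Each library came from sorted forebrain neurons of CK-p25 mice, in which a Camk2a promoter restricts the inducible p25 transgene to forebrain excitatory neurons; p25 activates the kinase Cdk5. All 3 groups, Con, Step1 and Step2, carry the transgene and are labelled with 2 weeks of induction without doxycycline, and each has 2 libraries. The labels state neither what sets the groups apart, nor the age of the mice, nor whether replicates are separate animals, so the p-values speak only to how these libraries vary, and that variation may be technical. Which neurons the sort kept is also not stated, and other neurons than those with an active transgene may be among them.

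Depth ran from 1480461 to 2403238 reads per library and was lowest in both Step2 libraries. Reads per distinct position ran from 1.19 to 1.42 and were highest in Con, and the median read was 49 bases long in Con, 48 in Step1 and 47 in Step2. Marker genes of cell types cannot be read as expression in a break assay. The 8 neuron markers had 1.06 ± 0.450 (SD, n = 2) RPM (reads scaled to a common library size) per gene start in Con, 1.67 ± 0.355 in Step1 and 1.49 ± 1.26 in Step2. The 5 astrocyte markers had 0.273, 0.732 and 1.40, the 5 oligodendrocyte markers 0.684, 0.690 and 1.32, the 5 microglia markers 0.775, 0.938 and 1.46 (0.898, 0.865 and 0.589 with 1 read per position, so that the order turned), and the 4 vascular markers 0.627, 0.551 and 0.867 in the same order of groups. No marker start was at 0 over all libraries, and what these levels contribute to the results was not tested.

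The 3 clusters carried break ends at about the density of the genome as a whole, in every group. Density is given as reads per base relative to the mean of the sequenced genome outside piled-up windows, so that 1 is the genome mean. The alpha cluster held 1175 reads over the 6 libraries and had a density of 1.02 and 1.15 in the Con libraries, 1.04 and 0.968 in Step1, and 0.933 and 0.918 in Step2. The gamma cluster held 851 reads, at 1.22 and 1.07 for Con, 1.12 and 0.966 for Step1 and 0.906 and 0.922 for Step2. In both clusters the Step2 libraries lay below all 4 others, and the Con and Step1 libraries overlapped. Step2 was apart and lower in 21.5% of gene bodies, clusters and segments against Con and in 17.7% against Step1. The share with Step2 below both groups at once was not counted. In sequencing run 2 the Step2 libraries overlapped both other groups in alpha and in gamma. The beta cluster, counted from its first start to its last end, held 1119 reads, at 0.819 and 0.953 for Con, 0.977 and 1.05 for Step1 and 0.926 and 1.08 for Step2. Here both Con libraries lay below both Step1 libraries and the Step2 libraries overlapped both groups (exact two-sided permutation p = 0.33 for Step1 against Con, the smallest that 2 libraries against 2 allow). Libraries were apart in 36.7% of gene bodies, clusters and segments in that comparison, a set that holds the merged beta gene bodies and not the span. With 1 read per position Con and Step1 overlapped in beta (means 0.962 and 1.02). They also overlapped in sequencing run 2 (0.856 and 0.902), though not in run 1.

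**Figure D1:**
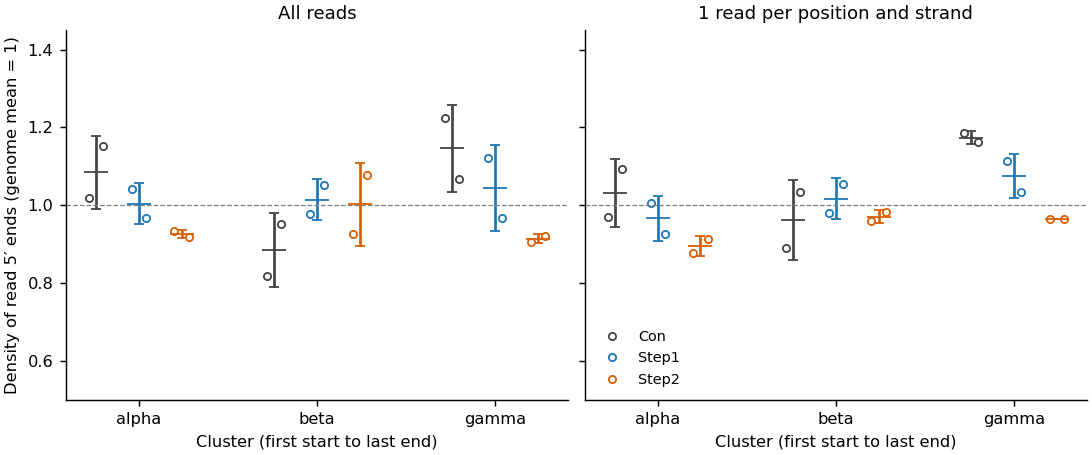
Density of read 5′ ends over each protocadherin cluster relative to the genome mean (y axis) for the alpha, beta and gamma clusters (x axis), with all reads at left and 1 read per position and strand at right; open circles are the 2 libraries of a group and bars the mean ± SD. Alpha and gamma were lowest in Step2 in both panels, and all values with all reads lay between 0.819 and 1.22.

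Among the 2464 protein-coding genes of at least 100 kb, density had a median of 1.01 and ran from 0.883 at the 10th percentile to 1.12 at the 90th. Over all libraries the alpha cluster stood at 1.02 (percentile 55.4), the beta span at 0.961 (percentile 31.6) and the gamma cluster at 1.05 (percentile 70.6). Against long genes within 1 percentage point of the same GC content, the percentiles were 51.0, 24.5 and 82.5. Each cluster therefore lay within the middle 80% of long genes in both sets.

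**Figure D2:**
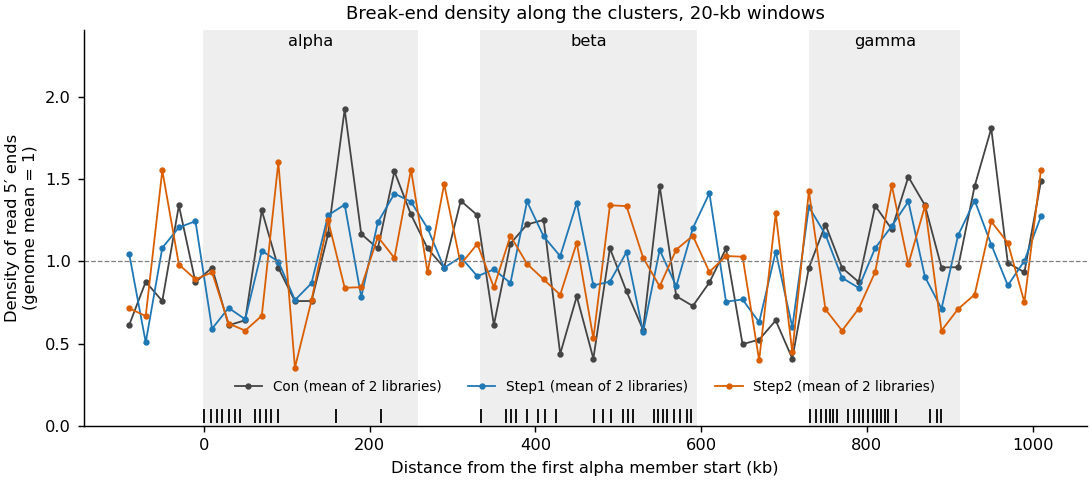
Density of read 5′ ends relative to the genome mean (y axis) in windows of 20 kb along the protocadherin locus and its flanks, by distance from the first alpha member start in kb (x axis); lines are means of the 2 libraries of a group, shaded spans are the clusters and ticks are the 57 member starts. Over all libraries the windows run from 0.486, between beta and gamma, to 1.44, beyond gamma, and lie on both sides of 1 within each cluster.

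Break ends were spread along the locus rather than gathered at a few places. Averaged over the 6 libraries, windows of 20 kb ran from 0.486 ± 0.191 (SD, n = 6) between the beta and gamma clusters, 700 kb from the first alpha start, to 1.44 ± 0.382 beyond the gamma cluster. The 1175 alpha reads lay at 913 positions, the 1119 beta reads at 933 and the 851 gamma reads at 711. The position with the most reads held 12 in alpha, 12 in beta and 9 in gamma, and in each case all of them came from 1 library. None of the 26 piled-up windows of the genome lay in the locus. The flanks were the 100 kb on each side, without the neighbouring cluster. Against them, the alpha cluster had 0.966 and 1.18 times the density for Con, 1.13 and 0.845 times for Step1 and 0.943 and 0.813 times for Step2. The same ratio for gamma was 1.48 and 0.944, 1.20 and 0.940, and 1.04 and 0.904. With 1 read per position, gamma gave 1.37 and 1.19 for Con, 1.15 and 1.11 for Step1 and 1.08 and 0.954 for Step2, so that the 3 groups did not overlap, whereas with all reads they did. In this set of reads libraries were apart in 37.6% of features for Step1 against Con, 38.3% for Step2 against Con and 34.4% for Step2 against Step1. Those shares are of scaled counts for 1 pair of groups at a time. The share for such a ratio, or with all 3 groups apart, was not counted.

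Exons of the members did not stand above the sequence between them in alpha, and in beta and gamma the libraries lay on both sides of it. Reads per base in the members' own exons, relative to the non-exon bases of the same span, ran from 0.767 to 1.00 over the libraries in alpha, from 0.802 to 1.42 in beta and from 0.614 to 1.16 in gamma. The shared constant exons held 14 reads in alpha, over 2.86 kb, and 6 in gamma, over 2.12 kb, which is too few to compare groups. Of all reads, 47.8% in alpha, 53.3% in beta and 46.9% in gamma lay on the plus strand, the strand of the genes.

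The first comparison, Step1 against Con, asks where break ends differed between these groups of neurons. No cluster passed the test. Counts over the merged gene bodies were fitted with limma together with all other genes, and the alpha cluster had 226 and 253 reads in Con and 239 and 189 in Step1, a log2 fold change of −0.10 ± 0.12 (SE; 95% interval −0.35 to 0.14; adjusted p = 0.894). The beta gene bodies, 92.2 kb in all, had 70 and 81 reads in Con and 84 and 73 in Step1, a log2 fold change of 0.12 ± 0.22 (−0.32 to 0.55; adjusted p = 0.931). The gamma cluster had 190 and 164 reads in Con and 180 and 132 in Step1, a log2 fold change of −0.13 ± 0.14 (−0.42 to 0.16; adjusted p = 0.891). In this comparison 0.116% of the 13801 features tested were called at an adjusted p of 0.05, and both libraries of 1 group lay beyond both of the other in 36.7% of them. No cluster, counted over merged gene bodies, was in either class. The longer beta span, which was apart as given above, was not among these features.

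Step2 against Con gave the largest cluster differences, and these were not called either. The gamma cluster had 86.2 and 75.1 RPM in Con and 63.8 and 64.9 in Step2, with a log2 fold change of −0.32 ± 0.17 (95% interval −0.66 to 0.02; limma adjusted p = 0.665). Alpha had 103 and 116 RPM in Con and 93.9 and 92.4 in Step2, with a log2 fold change of −0.22 ± 0.14 (−0.51 to 0.06; limma adjusted p = 0.742). Both Step2 libraries lay below both Con libraries in these clusters, and the libraries were apart in that direction for 21.5% of all features and in either direction for 36.7%. In this comparison 0.087% of features were called. Within the sequencing runs, both of which every library went through, the gamma value was −0.43 ± 0.23 in run 1 and −0.26 ± 0.20 in run 2, and the alpha value −0.26 ± 0.18 and −0.19 ± 0.17. In gamma the libraries of Con and Step2 overlapped within each run, and in alpha within run 2. The beta gene bodies had 31.8 and 37.1 RPM in Con and 28.8 and 48.0 in Step2, with a log2 fold change of 0.11 ± 0.24 (−0.36 to 0.59; adjusted p = 0.942). That small beta difference rested on the library Step2 replicate 2 and was −0.25 without it, and with 1 read per position it was −0.0042. Over the other gene bodies the median log2 fold change was −0.04 in each of these comparisons with Con.

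No difference between Step2 and Step1 passed the test either, with log2 fold changes of −0.12 ± 0.14 in alpha (95% interval −0.41 to 0.17), −0.00 ± 0.24 in beta (−0.48 to 0.47) and −0.19 ± 0.17 in gamma (−0.54 to 0.15), each with an adjusted p of 0.999 in limma. The libraries were apart in alpha and gamma, lower in Step2, which was so in 17.7% of all features (33.9% in either direction), and 0.029% of features were called. Within sequencing run 2 they overlapped in both clusters, with mean densities of 0.924 in Step2 and 0.910 in Step1 for alpha and 0.978 and 1.00 for gamma. The comparisons with Con share the Con libraries, and those with Step2 share the Step2 libraries. Over the 9 cluster comparisons, no unadjusted p was below 0.05 with limma voom or with limma-trend on all reads. In Step2 against Con the unadjusted p was below 0.05 for alpha without Con replicate 1, and for gamma without Con replicate 2, with a smooth on GC content subtracted and with the replicate block, all with limma adjusted p values of at least 0.432. With 1 read per position and strand gamma still had its lowest values in Step2, at 83.4 and 81.7 RPM for Con, 78.5 and 72.8 for Step1 and 67.8 and 67.8 for Step2, with a log2 fold change from Con of −0.28 ± 0.15 (95% interval −0.57 to 0.0042; limma adjusted p = 0.635). The 3 groups did not overlap here, where libraries were apart in 37.6%, 38.3% and 34.4% of features in the comparisons in turn. The share of features with all 3 groups apart was not counted.

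**Figure D3:**
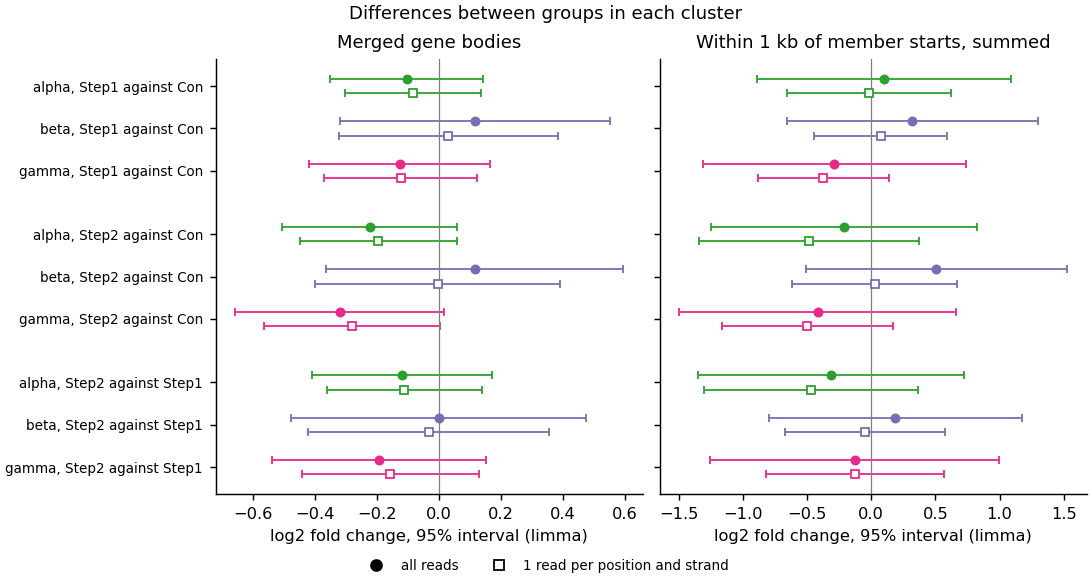
Log2 fold changes with 95% intervals from limma (x axis) for each cluster and comparison (y axis), for merged gene bodies at left and for regions within 1 kb of member starts at right; filled circles are all reads and open squares 1 read per position and strand. Every interval covers 0, and gamma in Step2 against Con comes nearest to excluding it.

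Just before their starts, members had fewer break ends per base than other genes did in the mean over the 6 libraries, though not in every group apart. In the 500 bases before the start, the density was 2.40 ± 0.843 (SD over the 6 libraries) at other genes, against 1.48 ± 0.382 at alpha members, 1.16 ± 0.312 at beta members and 1.35 ± 0.738 at gamma members. With 1 read per position the same values were 2.24, 1.49, 1.24 and 1.33. The member values rest on 48, 58 and 66 reads, and the difference was not tested. At other genes the same bin had 3.27 ± 1.10 (SD, n = 2) in Con, 1.99 ± 0.244 in Step1 and 1.93 ± 0.162 in Step2, while at alpha members it had 1.502 ± 0.481, 1.81 ± 0.162 and 1.14 ± 0.157. Beta members had 1.22 ± 0.533, 1.28 ± 0.223 and 0.968 ± 0.209, and gamma members 1.44 ± 0.619, 1.43 ± 1.31 and 1.19 ± 0.743. In Step1 alpha and gamma members overlapped other genes within these SDs. The lowest bin of the alpha profile, 1.5 to 2 kb past the start, had 0.281 ± 0.199 (9 reads), where other genes had 1.05 ± 0.0370. The lowest gamma bin, 2 to 2.5 kb downstream, had 0.431 ± 0.120 (20 reads), where other genes had 1.00. Beta members had 0.811 and 0.841 in these bins. Their highest bin, from 1500 to 1000 bases before the start, had 1.58 ± 0.524 (75 reads), where other genes had 1.07. Single bins were not tested. The deposited reads all have a mapping quality of at least 11, so reads that match several alike variable exons equally well may be missing here, and their part in the low bins was not tested. Of reads in the clusters, 77.7% in alpha, 70.2% in beta and 85.0% in gamma had the highest score, 42, against 77.0% in the genome.

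**Figure D4:**
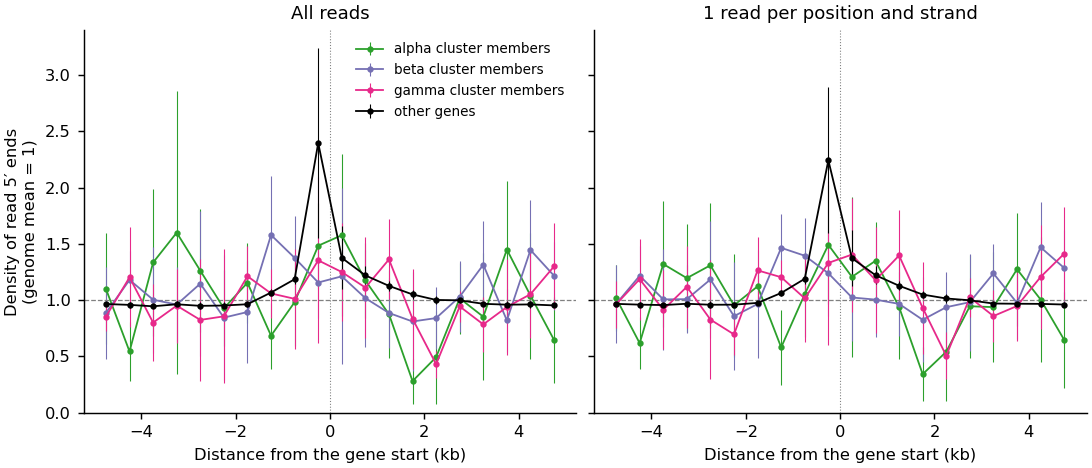
Density of read 5′ ends relative to the genome mean (y axis) in bins of 500 bases by distance from the gene start in kb (x axis), for the members of each cluster and for all other protein-coding genes, with all reads at left and 1 read per position and strand at right; points are means and bars SDs over 6 libraries. Other genes peak at 2.40 just before the start, above the 1.16 to 1.48 of the clusters, and the alpha and gamma curves dip 1.5 to 2.5 kb after it.

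Within 1 kb of a start, density relative to the rest of the cluster was moderately raised in most libraries. For alpha starts the ratio was 1.36 and 1.18 for Con, 1.31 and 1.72 for Step1 and 1.41 and 1.14 for Step2. For beta starts it was 1.03 and 1.18, 1.08 and 1.44, and 1.37 and 1.60, and for gamma starts 1.42 and 1.12, 1.52 and 0.752, and 0.965 and 1.29, in the same order. Other genes outside piled-up windows had 1.47 and 1.99 for Con, 1.30 and 1.44 for Step1 and 1.38 and 1.46 for Step2. The ratios of all 3 clusters overlapped those of other genes, and at gamma starts the Step1 libraries lay further apart than the group means did.

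Read counts at the starts were small, and no cluster was called in any comparison. Summed over members, alpha starts had 32 and 32 reads for Con, 33 and 33 for Step1 and 20 and 16 for Step2. Gamma starts had 57 and 42, 57 and 25, and 21 and 27. Beta starts had 32 and 41, 41 and 47, and 30 and 38. After scaling for depth, beta was at 14.5 and 18.8 RPM in Con and 20.6 and 26.8 in Step2, both higher, while in alpha and gamma both Step2 libraries lay below both Con libraries.

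Fitted among the 920 start features that passed the count filter, Step1 against Con gave log2 fold changes of 0.10 ± 0.45 in alpha, 0.32 ± 0.45 in beta and −0.29 ± 0.47 in gamma, with limma adjusted p values of 0.867, 0.581 and 0.637. Step2 against Con gave −0.21 ± 0.47, 0.51 ± 0.46 and −0.42 ± 0.49, with adjusted p values of 0.721, 0.400 and 0.498. The 95% intervals for Step2 against Con were −1.25 to 0.83 in alpha, −0.51 to 1.53 in beta and −1.496 to 0.66 in gamma. In these comparisons 0.109% of start features were called each time, and libraries were apart in 63.6% and 72.5% of them. For Step2 against Con 71.1% were apart with Step2 lower and 1.41% with Step2 higher. Nearly all of these are single starts that passed a filter favouring high Con counts, so the cluster sums cannot be read against these shares. With 1 read per position the beta libraries overlapped, at 0.7945 and 1.00 RPM per start in Con and 0.929 and 0.8585 in Step2. Step2 against Step1 gave −0.31 ± 0.47, 0.19 ± 0.45 and −0.13 ± 0.51 (adjusted p = 0.970 each in limma), with 0% of features called and 33.2% apart.

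The start regions of other genes that passed the filter mostly had fewer reads than in Con. Their median log2 fold change was −0.95 in Step1 against Con, with 90.5% of 917 lower, and −1.19 in Step2 against Con, with 92.3% lower. These regions needed at least 10 reads in 2 libraries, the size of 1 group, and could pass through Con alone, where starts were densest, so the filter itself favours values below 0. A cluster value also sums up to 22 regions that did not pass alone, so it cannot be read against these medians. Under median-of-ratios scaling, which sets the median start to no change, beta starts were higher in Step2 than in Con by 1.75 ± 0.39 on the log2 scale (limma adjusted p = 0.00121). Alpha starts were then at 1.03 and gamma starts at 0.83 in the same comparison, neither called. With a smooth on GC content subtracted, beta starts were at −0.20. The beta difference of 0.51 shrank to 0.03 with 1 read per position. Leaving out Step1 replicate 2 turned the Step1 against Con value to −0.012 in alpha and to 0.16 in gamma.

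Among single members, start reads ran from 1 at Pcdhga5 to 33 at Pcdhac1 over all 6 libraries, with a median of 10. All 57 members had at least 1 read, 12 had reads in every library, and none of the 57 start regions passed the filter of 10 reads in 2 libraries, so none was tested alone. The variance of the counts over members was 2.93 times their mean with all reads and 1.80 times with 1 read per position. GC content of the start region bore little relation to the count over members (Spearman's rho −0.06 and Pearson's r 0.17 over 57 members, which share libraries).

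**Figure D5:**
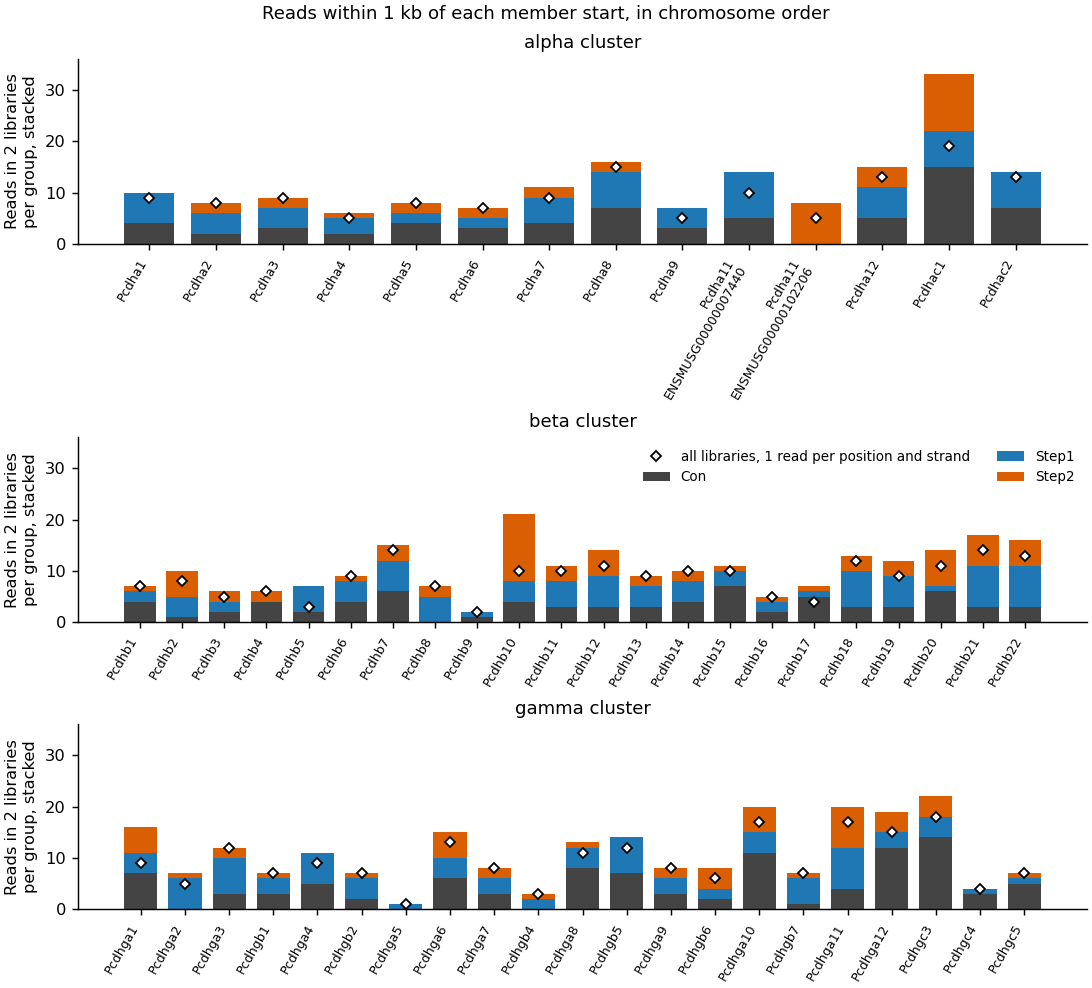
Reads within 1 kb of each member start (y axis) for the 57 members in chromosome order (x axis), stacked over the 2 libraries of Con, Step1 and Step2; diamonds give the total over all libraries with 1 read per position and strand. Pcdhac1 has 33 reads and Pcdhb10 has 21, both well above their diamonds at 19 and 10.

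In the alpha cluster Pcdhac1 led with 5 and 10 reads for Con, 3 and 4 for Step1 and 8 and 3 for Step2. Pcdha8 followed with 16 reads and Pcdha12 with 15, both alternate members subject to random choice. The second gene under the symbol Pcdha11, ENSMUSG00000102206, was singled out after its values were seen: its 8 start reads, 5 with 1 read per position, came from Step2 alone, with 2 and 6. How often groups are apart at starts with so few reads was not counted, for this member or the others named here. In the beta cluster Pcdhb10 led with 21 reads, of which 12 came from Step2 replicate 2. These 12 reads shrank to 1 with 1 read per position, since they share the position 37411824 on the plus strand, 160 bases into the gene. Pcdhb21 had 17 reads and Pcdhb22, its neighbour at the end of the cluster, 16. In the gamma cluster Pcdhgc3 led with 7 and 7 reads for Con, 2 and 2 for Step1 and 3 and 1 for Step2, and Pcdhga10 and Pcdhga11 had 20 each. For Pcdhga10, 9 of the 20 came from Con replicate 1.

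The C-type starts held more break ends per start in Con than in the other groups. The 5 starts together had 18 and 26 reads for Con, 9 and 11 for Step1 and 11 and 5 for Step2. In RPM per start this was 2.01 ± 0.529 (SD, n = 2) in Con, 0.961 ± 0.243 in Step1 and 1.11 ± 0.568 in Step2, with both Con libraries above the other 4. Among the 920 start features that passed the count filter, libraries were apart in 63.6% for Step1 against Con and in 72.5% for Step2 against Con. In the latter, 71.1% had Step2 lower. That filter favours starts high in Con and no C-type start passed it, so this non-overlap cannot be read against these shares. In the 500 bases before the start, other genes were also densest in Con (3.27, with 1.99 in Step1 and 1.93 in Step2). The exact two-sided permutation p was 0.33 for each group against Con, the smallest that 2 libraries against 2 allow, so the difference could not pass 0.05. With 1 read per position the values were 2.04 ± 0.493, 1.04 ± 0.212 and 0.670 ± 0.0232, from 15 and 19, 9 and 10, and 4 and 4 reads.

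In Con the classes of alternate starts had means from 0.570 to 1.18 in the same unit. The 12 alternate alpha starts had 0.797 ± 0.156 in Con, 1.03 ± 0.0611 in Step1 and 0.725 ± 0.0556 in Step2. The 22 beta starts had 0.757 ± 0.137, 0.959 ± 0.200 and 1.08 ± 0.200, the 12 gamma A starts 1.18 ± 0.476, 1.02 ± 0.526 and 1.02 ± 0.307, and the 6 gamma B starts 0.570 ± 0.0575, 0.885 ± 0.402 and 0.464 ± 0.00936. The difference between C-type and alternate starts was not tested. C-type start regions had a GC content of 50.2% to 54.8% and the others 38.8% to 47.2%, so type and GC content cannot be told apart here.

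The order of the C-type starts was not the same in both sequencing runs. In run 1, Step2 had 8 and 3 reads against 7 and 7 in Con, and the mean difference in RPM per start was 0.309 higher in Step2. That higher mean rested on Step2 replicate 1, at 2.56 RPM per start, with 0.851 in Step2 replicate 2. Over both runs Step2 replicate 1 had 8 start reads at Pcdhac1, which fell to 2 with 1 read per position. In run 2, Step2 had 3 and 2 reads against 11 and 19 in Con, a difference of −1.93. Of the members, Pcdhac2 had 3 and 4 reads for Con, 3 and 4 for Step1 and none in either Step2 library. Pcdhgc4 had 1 and 2, none and 1, and none in Step2, and Pcdhgc5 had 2 and 3, 1 and none, and none and 1. Without Pcdhac1, the other 4 had 1.65 ± 0.253, 0.780 ± 0.172 and 0.433 ± 0.114 RPM per start.

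To compare members over more sequence, each was given the segment from its start to the next member's start. Of 57 segments, 17 had enough reads to be tested, and none was called in any comparison. In Step1 against Con, 9 were higher and 8 lower, with a median log2 fold change of 0.02, beside −0.04 over other gene bodies, and 1 had an unadjusted limma p below 0.05. That segment was Pcdhb8, with 21 and 21 reads for Con, 39 and 36 for Step1 and 21 and 20 for Step2, a log2 fold change of 0.88 ± 0.33 (95% interval 0.21 to 1.54; limma adjusted p = 0.566). In RPM it had 9.53 and 9.62 for Con, 17.1 and 18.5 for Step1 and 14.4 and 14.1 for Step2. Both Step1 libraries lay above both Con libraries, as libraries were apart in either direction in 36.7% of features and in 6 of the 17 segments. The Pcdhb8 value with 1 read per position was 0.57 ± 0.29 and no longer had an unadjusted p below 0.05. The lowest value was that of Pcdha7, with 11 and 14 reads in Con and 5 and 5 in Step1 (−1.18 ± 0.68; limma adjusted p = 0.743). Its value with 1 read per position was −1.26 ± 0.60, the only 1 of 14 tested segments with an unadjusted p below 0.05 (limma adjusted p = 0.553). Next in either direction came Pcdhb14 at −0.42 ± 0.54 and Pcdhb7 at 0.33 ± 0.52.

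In Step2 against Con, 5 segments were higher and 12 lower, with a median of −0.15, and none had an unadjusted p below 0.05 in limma. The lowest was Pcdhb5, with 19 and 16 reads for Con, 11 and 16 for Step1 and 1 and 11 for Step2 (−1.53 ± 0.82; 95% interval −3.18 to 0.12; limma adjusted p = 0.677), where the 2 Step2 libraries lay far apart. The next lowest was Pcdhga2 at −0.56 ± 0.93, while the highest were Pcdhb10 at 0.72 ± 0.53 and Pcdhb8 at 0.58 ± 0.37. Pcdhb5 with 1 read per position was at −1.57 ± 0.75 and was the 1 segment with an unadjusted p below 0.05 (limma adjusted p = 0.571). The Pcdhb10 value rests on the 12 reads at 1 position in Step2 replicate 2: with 1 read per position its segment had 8 and 7 reads for Con, 8 and 8 for Step1 and 6 and 5 for Step2, too few to be tested. In Step2 against Step1, 6 were higher and 11 lower, from −1.18 ± 0.83 at Pcdhb5 and −0.50 ± 0.31 at Pcdha12 to 0.96 ± 0.57 at Pcdhb10, which rests on the same 12 reads, and 0.92 ± 0.55 at Pcdhb14, with a median of −0.14. The segment of the C-type member Pcdhac1, 53.5 kb long, had 59 and 78 reads for Con, 59 and 44 for Step1 and 46 and 22 for Step2 (Step2 against Con −0.46 ± 0.29; limma adjusted p = 0.742). Of the 78 in Con replicate 2, 12 share a position 18801 bases into the gene.

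Other clusters of paralogous genes gave a scale for these values. Ugt1a, a cluster of glucuronidation genes that also joins variable first exons to shared exons, had a density of 1.32 over all libraries, at percentile 99.5 of long genes, and log2 fold changes between groups from −0.03 to 0.02. These were 0.19 ± 0.12 for Step1 against Con and 0.15 ± 0.14 for Step2 against Con with 1 read per position, neither called. The Hox clusters of developmental transcription factors had densities of 1.02 (Hoxa), 0.777 (Hoxb), 0.933 (Hoxc) and 0.897 (Hoxd), with log2 fold changes from −0.14 to 0.37 and none called. Among the 12 non-clustered protocadherins, which are spread over the genome, 10 were tested. In Step1 against Con 8 of them were lower, with a median of −0.11, and 1 was called, Pcdh9 (−0.27; limma adjusted p = 0.0429), where 0.116% of all features were called. Pcdh9 with 1 read per position was at −0.17 ± 0.05 and was not called (limma adjusted p = 0.206). In Step2 against Con 8 were lower, with a median of −0.08 and none called, Pcdh9 being at −0.31 ± 0.07 (adjusted p = 0.0665). Whether these genes and the clusters differed from each other was not tested.

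Genes that act on the clusters were without calls. Over all features 0.116% were called in Step1 against Con and 0.087% in Step2 against Con, so a lack of calls among so few genes says little about them. Of other gene bodies, 54.6% and 53.9% were lower in these comparisons. Among 16 regulators of promoter choice, which include Ctcf, the cohesin genes and the silencers Smchd1 and Dnmt3b, 5 were higher and 11 lower in Step1 against Con (median −0.05) and 6 were higher and 10 lower in Step2 against Con (median −0.05). Ctcf had 39 and 62 reads for Con, 39 and 37 for Step1 and 31 and 19 for Step2 (−0.31 ± 0.28 and −0.39 ± 0.32 against Con). In each comparison 1 gene had an unadjusted limma p below 0.05, the cohesin subunits Smc1a at −0.60 ± 0.26 in Step1 and Smc3 at 0.63 ± 0.31 in Step2. Of 18 genes of protocadherin partners and signalling, such as the kinase Ptk2 and subunits of the WAVE complex, 17 were tested, with 5 higher and 12 lower in each comparison with Con (medians −0.07 and −0.12), none called, and 1 and 3 with an unadjusted limma p below 0.05.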

How the data were processed

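The 6 BLISS libraries comprise 2 each of Con, Step1 and Step2. Per the submitters' design text and processing notes, Bowtie2 placed the reads on mm10, molecular identifiers served to drop PCR duplicates, and SAMtools and bedtools handled the conversion; no version of these tools is given in the sources used here. Each deposited line is 1 aligned read with a score, the mapping quality, which ran from 11 to 42. Members, lists and tests were chosen with earlier results of these data known.

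The count per feature is of read 5′ ends, with all reads or with 1 read per position and strand. Library size was the reads on chromosomes 1 to 19 and X outside 26 piled-up windows of 10 kb, those with over 20 times the median of 45.0 reads. Start regions reach 1 kb to each side. The first table held other gene bodies, merged clusters and member segments, and the second start regions and their sum per cluster. Segments overlap the merged clusters and share their reads. Features with at least 10 reads in 2 libraries entered a two-sided voom fit of the 3 group means (limma 3.58.1, R 4.3.3), with Benjamini-Hochberg adjustment over the table and a threshold of 0.05. On simulated counts for Step1 against Con, 12% of 1.5-fold, 40% of 2-fold and 88% of 4-fold changes were called among 13237 bodies and segments, and 16%, 24% and 76% among 709 starts. Of unchanged features, 8 and 2 were called. The simulated dispersion (spread beyond counting) was fixed at 0.005 and not estimated from these libraries, so these shares are too high where libraries vary more. Further tools were SciPy 1.17.1, pandas 2.3.3, numpy 2.4.6 and matplotlib 3.10.9 under Python 3.11.15.

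Named were the clusters, the 5 C-type members, the 3 members per cluster with the most start reads, any called member, and per comparison the 2 tested segments with the largest change in each direction, plus the comparison genes. The members Pcdhga5 and Pcdha11 and the genes Ctcf, Smc1a, Smc3, Smchd1, Dnmt3b and Ptk2 were named beside that rule from fixed lists or to identify a count. Alternatives covered read sets, mapping quality, sequencing run, scaling, filters, limma-trend, a replicate block, GC content, cluster extent, start width and leaving out each library; when a group is left with 1 library, its spread is taken from the other groups.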

Additional observations from a re-analysis of the deposited data

How the results depend on the processing

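No cluster comparison over gene bodies crossed the threshold under any alternative run, and the gamma and alpha values in Step2 against Con stayed below 0 under all 20, from −0.43 to −0.22 and from −0.31 to −0.14. Depth limits the rest: the start sums rest on 16 to 57 reads per library, and leaving out 1 library turned the sign of 4 of these 9 values.

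Same-numbered libraries showed no clear pairing: their deviations from the group means correlated at 0.028, 0.005 and 0.024 over 3831 features with a mean of at least 50 reads. Count noise at this depth can hide a shared effect, so these values cannot settle whether the libraries were paired. With the replicate block, the only cluster value to change sign was that of beta bodies in Step2 against Step1, at 0.028 (0.018 with the GC smooth as well), and no cluster was called, with 1 of the 9 unadjusted p values over gene bodies below 0.05. The block raised the count of all features called from 16 to 38, from 12 to 42 and from 4 to 11 in Step1 against Con, Step2 against Con and Step2 against Step1. Over all alternatives they lay between 3 and 205, 1 and 130, and 2 and 11; the 205 and 130 are without Con replicate 1, and without Step2 replicate 1 the second count was 1.

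Signs of small values turned as follows; the cause was not tested. Beta bodies in Step2 against Step1 were 0.0089 with median-of-ratios scaling, 0.0090 with all reads as library size, 0.016 with limma-trend, 0.11 and 0.17 with mapping quality of at least 30 and of 42, and 0.30 in run 2. Beta bodies in Step1 against Con were −0.11 with mapping quality 42 and −0.031 in run 2, and in Step2 against Con −0.0042 with 1 read per position and −0.049 in run 1. Alpha bodies were 0.0042 in run 1 for Step1 against Con and 0.0057 in run 2 for Step2 against Step1.

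At the starts, median-of-ratios scaling gave 0.67 for gamma in Step1 against Con, 0.16 for gamma in Step2 against Step1, and in Step2 against Con 1.03 for alpha, 1.75 for beta (called, adjusted p = 0.00121) and 0.83 for gamma. This scaling sets to no change the median of starts that passed the filter, which favours starts high in Con. Subtracting the GC smooth, without and with the replicate block, gave −0.19 and −0.19 for alpha and −0.023 and −0.021 for beta in Step1 against Con, and for beta −0.20 and −0.20 in Step2 against Con and −0.18 and −0.18 in Step2 against Step1. With 1 read per position, alpha in Step1 against Con was −0.016 and beta in Step2 against Step1 −0.049. In run 1, gamma in Step1 against Con was 0.076 and beta in Step2 against Step1 −0.14. Windows of 500 bases gave −0.057 for alpha in Step1 against Con and 0.24 for gamma in Step2 against Step1, and windows of 2 kb −0.0040 for beta in Step2 against Step1. With mapping quality 42 the beta span fell from a density of 0.967 to 0.846, and its starts rose from 1.28 to 1.60 times the rest.

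Leaving out each library in turn gave, for bodies in Step1 against Con, −0.19 to −0.02 (alpha), 0.00 to 0.23 (beta) and −0.24 to −0.03 (gamma); in Step2 against Con −0.31 to −0.14, −0.25 to 0.48 and −0.42 to −0.22; and in Step2 against Step1 −0.17 to −0.06, −0.36 to 0.37 and −0.29 to −0.08. For starts the ranges were −0.012 to 0.22, 0.12 to 0.55 and −0.78 to 0.16; then −0.35 to −0.08, 0.32 to 0.70 and −0.63 to −0.20; and −0.45 to −0.18, −0.039 to 0.39 and −0.58 to 0.36. The C-type starts, whose alternatives were chosen after seeing the data, are given in both sequencing runs beside their values.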
